A study of Homo sapiens with 12 samples.

Results

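Transcripts of the mitochondrial chromosome were read out of RNA-seq counts of MKN28 and MKN45, which are human gastric cancer lines. The members were taken by Ensembl identifier as every gene of the mitochondrial chromosome, whose symbols start with MT-. Of the 37 such genes in GENCODE 29, 15 had a row in the count table, out of 50868 gene identifiers in all. These 15 were the 13 mRNA genes and the 2 rRNA genes, and the 22 tRNA genes are not analysed here. All 15 passed the filter on low counts in every fit.

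The mitochondrial genome is a small circle that each cell carries in many copies. Its strands are copied by a dedicated RNA polymerase into long precursors that run through many genes, and excision of the tRNAs that lie between them releases the rRNAs and mRNAs. Since neighbours on a strand share a precursor, their mature levels are set largely by processing, polyadenylation and decay, in which the LRPPRC and SLIRP complex, the polynucleotide phosphorylase PNPT1 and the FASTK family act. The mRNAs encode core subunits of the respiratory chain: 7 of complex I (NADH dehydrogenase), 1 of complex III (cytochrome b), 3 of complex IV (cytochrome c oxidase) and 2 of complex V (ATP synthase). All other subunits of these complexes come from nuclear genes.

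The series asks how gene expression differs with the level of ZNF165, a zinc-finger protein classed as a cancer/testis antigen. MKN28 cells with a control lentivirus (genotype given as WT) were compared with MKN28 cells under lentiviral ZNF165 siRNA, and MKN45 controls with MKN45 cells overexpressing ZNF165 from a lentivirus, with 3 libraries in each of the 4 groups. The descriptions of knockdown replicates 2 and 3 name other ZNF genes, although the genotype listed for both is ZNF165 knockdown, which was followed. The labels do not say that replicates were separate cultures, so p-values measure library-to-library spread that could be technical. No clone, pool or time after infection is given in the sources used here.

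Libraries held 12075813 to 19548445 counts. ZNF165 had 186 to 287 counts in MKN28 controls and 22 to 74 in knockdown libraries, and 140 to 277 in MKN45 controls against 1909 to 2115 under overexpression. The epithelial markers EPCAM, KRT8, KRT18, KRT19, CDH1 and CLDN4 summed to 4475 CPM (counts scaled by the library total) or more in every library. Their sum was 7143 to 7721 CPM in MKN28 controls and 14455 to 39275 CPM in the knockdown. The 5 leukocyte markers summed to at most 3.53 CPM in MKN28 and at least 99.1 CPM in MKN45, with 1 of them above the filter in each line. The 5 fibroblast markers summed to 89.0 to 122 CPM in MKN28 controls and 27.3 to 44.8 in the knockdown. In MKN45 they summed to 18.6 to 19.3 CPM in controls and 22.5 to 27.4 under overexpression. The 4 endothelial markers summed to at most 2.16 CPM in every library. The knockdown libraries stood apart in a measure that does not use the mitochondrial genes: Spearman's rho of CPM with transcript length over nuclear genes was 0.161 to 0.266 in MKN28 controls and -0.133 to -0.0432 in the knockdown, and in MKN45 it was 0.0584 to 0.22 in controls and 0.273 to 0.284 under overexpression. The matching rho with GC content was at most 0.191 in every library except knockdown replicates 2 and 3, at 0.392 and 0.383. The part of these shifts in the results below was not tested beyond the fits that remove length and GC trends or leave out both libraries.

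The share of a library that fell on mitochondrial genes was lower in the knockdown and higher in MKN45 than in MKN28. In MKN28 controls it was 6.81%, 7.05% and 5.08% of counts in replicates 1, 2 and 3, and in the knockdown it was 4.26%, 4.67% and 2.27%. Every knockdown library lay under every control, with means of 3.73% ± 1.28 against 6.32% ± 1.07 (SD, n = 3 each). In MKN45 controls the share was 9.27%, 13.8% and 12%, and under overexpression 13.1%, 13.5% and 11.6%. These groups overlapped, with means of 11.7% ± 2.26 and 12.7% ± 0.972 (SD, n = 3 each), and the sign of their difference rested on MKN45 control replicate 1: it was 1.08 percentage points with all libraries and -0.119 without that one. The MKN45 controls lay above the MKN28 controls without overlap, by 5.35 percentage points of the means. These are shares of a fixed total, so fewer mitochondrial transcripts and more of other RNA cannot be told apart, and neither can fewer cells with a transcript and less of it per cell.

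**Figure D1:**
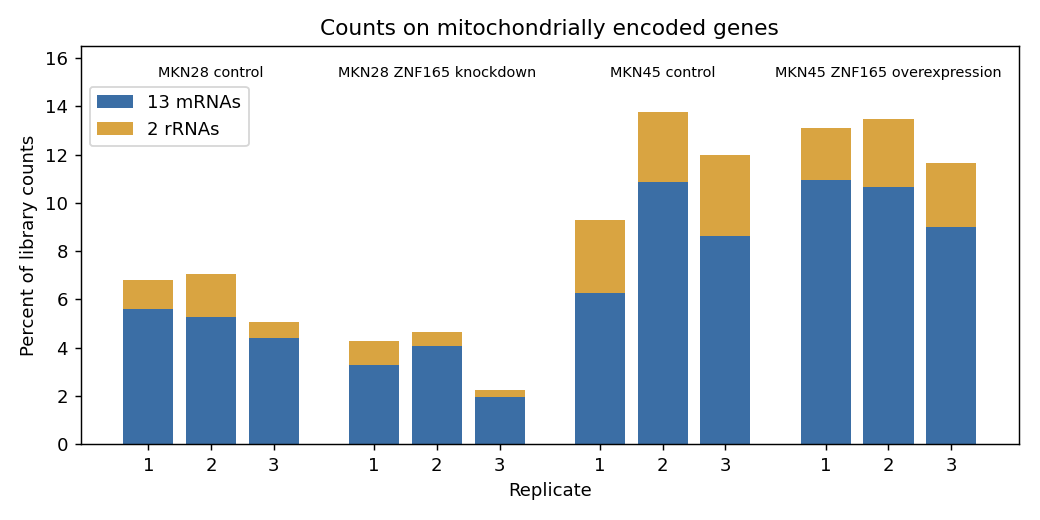
Percent of each library's counts on the 13 mitochondrial mRNAs (blue) and the 2 mitochondrial rRNAs (yellow), stacked, with libraries along the horizontal axis by group and replicate. The knockdown libraries stand lowest, at 2.27% to 4.67%, and the MKN45 libraries highest, at 9.27% to 13.8%.

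The 2 rRNAs are the structural RNAs of the mitochondrial ribosome, MT-RNR1 of its small and MT-RNR2 of its large subunit. MT-RNR1 (ENSG00000211459) spans bases 648 to 1601 and MT-RNR2 (ENSG00000210082) bases 1671 to 3229 of the chromosome, both on the plus strand of GRCh38 in GENCODE 29. Together they took 1.21%, 1.76% and 0.661% of the library in MKN28 controls and 0.963%, 0.61% and 0.324% in the knockdown, and these ranges overlapped. In MKN45 controls they took 3%, 2.9% and 3.33%, and under overexpression 2.16%, 2.8% and 2.65%, so every overexpression library lay below every control while the mRNAs' share did not separate. Counts on rRNA per count on mRNA varied widely within groups, from 0.15 to 0.333 in MKN28 controls and from 0.267 to 0.479 in MKN45 controls. How much rRNA a library holds depends on how it was selected or depleted, which is not given in the sources used here.

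The large rRNA outnumbered the small one in every library, by a ratio that differed between lines and with the knockdown. MT-RNR2 counts per MT-RNR1 count were 9.41, 9.21 and 6.63 in MKN28 controls and 3.64, 6.58 and 5.12 in the knockdown, with no overlap by a narrow margin. In MKN45 the ratio was 15.8, 9.82 and 15.5 in controls and 15.1, 16.7 and 15.7 under overexpression, where the groups overlapped. MKN45 control replicate 2 was the low value there, and that library also had the lowest rho with transcript length of its line, 0.0584.

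Among the mRNAs, a pair of gene pairs overlap on the same strand and are known to be carried on shared bicistronic mRNAs. Their junctions are shown because the partners of a pair share bases and messages. The counts compared below are not scaled for gene length. MT-ATP8 and MT-ATP6 span 207 and 681 bases, and MT-ND4L and MT-ND4 span 297 and 1378. Capitals mark the bases that both genes of a pair hold, 46 for MT-ATP8 (bases 8366 to 8572) and MT-ATP6 (8527 to 9207), and 7 for MT-ND4L (10470 to 10766) and MT-ND4 (10760 to 12137). The sequences are those of the GENCODE 29 transcripts (GRCh38), 5′ to 3′, plus strand.
MT-ATP8 end: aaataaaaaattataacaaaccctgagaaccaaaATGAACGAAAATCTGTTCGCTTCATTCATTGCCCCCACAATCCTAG
MT-ATP6 start: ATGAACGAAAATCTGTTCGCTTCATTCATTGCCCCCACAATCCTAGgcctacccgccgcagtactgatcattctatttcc
MT-ND4L end: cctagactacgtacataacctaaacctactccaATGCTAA
MT-ND4 start: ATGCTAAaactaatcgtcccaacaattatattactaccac
MT-ATP8 had 1.63 to 2.13 counts per MT-ATP6 count over all libraries, and MT-ND4L had 0.132 to 0.274 counts per MT-ND4 count. The knockdown left the second ratio between 0.235 and 0.259, inside or just under the 0.249 to 0.274 of its controls. Its lowest values were in MKN45 control replicates 2 and 3, at 0.132 and 0.16.

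Per kilobase of gene, MT-CO2 was the most abundant member and MT-ND6 the least in all 4 groups. Levels here are CPM by library total divided by gene length. MT-CO2, a copper-binding subunit of cytochrome c oxidase, was at 11983 ± 1356 CPM per kilobase in MKN28 controls, 10699 ± 3994 in the knockdown, 19966 ± 6110 in MKN45 controls and 21275 ± 2525 under overexpression (SD, n = 3 each). MT-ND6, the complex I subunit that is the only mRNA encoded on the opposite strand, was at 248 ± 71.1, 37.2 ± 18.6, 266 ± 29.5 and 557 ± 78.8 in the same order. The span between them was therefore 48.4 times in MKN28 controls and 288 times in the knockdown, and 75.2 times in MKN45 controls and 38.2 times under overexpression.

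Most neighbours in the order of levels were not separated by their replicates. In MKN28 controls MT-CO2 lay above MT-ND4L (8319 ± 1403 CPM per kilobase) in all libraries, while MT-ND4L, MT-CO1, MT-RNR2 and MT-ND4 (6815 ± 1078) followed with overlapping values. MT-ND3 was the 13th of the 15 there, at 1144 ± 346, and the 5th in the knockdown, at 3697 ± 1671. MT-ND4L went the other way, from the 2nd place to the 9th, at 1913 ± 683. In MKN45 controls MT-CO2, MT-RNR2, MT-CO3, MT-CO1, MT-ATP8, MT-ND4 and MT-ND4L each overlapped the next. Of the pairs on shared mRNAs, MT-ATP8 was at 4653 ± 534 and MT-ATP6 at 726 ± 47.2 CPM per kilobase in MKN28 controls. The other pair, MT-ND4L and MT-ND4, was at 8319 ± 1403 and 6815 ± 1078. How reads over bases shared by a pair, or with a nuclear copy, were counted is not given. The part of counting in the gap between MT-ATP8 and MT-ATP6 was not tested.

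In the knockdown, MT-ND3 rose and MT-ND6 fell, and 13 of the 15 members did not pass the test. Of all 14939 genes tested in this comparison, 40.8% passed, 19.2% higher and 21.6% lower, so the members' 2 calls lie under the background. The members' log2 fold changes had a median of 0.58 and ran from -1.94 to 2.67, against a median of -0.20 over all genes. With library totals alone the members' median was -0.30, against -0.92 over all genes, so its sign depended on the scaling. The TMM factors were 0.569 to 1.03 in knockdown libraries and 1.26 to 1.38 in controls. In TMM-scaled CPM, 3 members lay above the controls in every knockdown library and 4 lay below, where 23.5% and 30.3% of all genes did so.

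MT-ND3 (ENSG00000198840, bases 10059 to 10404), a small membrane subunit of complex I, had 6805, 9710 and 4801 counts in MKN28 controls and 10772, 33327 and 15152 in knockdown libraries. By library total these are 387, 520 and 281 CPM against 713, 1869 and 1255 CPM, so the groups do not overlap and knockdown replicate 2 is highest. Its fold change was 6.34 (log2 2.67, SE 0.63, edgeR quasi-likelihood test with Benjamini-Hochberg adjusted p = 0.00927). With library totals in place of TMM factors the log2 value was 1.69. The call was lost without MKN28 control replicate 1 (edgeR log2 2.60, adjusted p = 0.0529), without MKN28 control replicate 3 (2.43, adjusted p = 0.0533) and without knockdown replicates 2 and 3 together (1.23, adjusted p = 0.0837). In that last fit, here and below, the knockdown arm is 1 library that is assumed to vary like the 3 controls, from which the whole spread comes.

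MT-ND6 (ENSG00000198695, bases 14149 to 14673, minus strand) had 2962, 1749 and 2193 counts in MKN28 controls and 450, 329 and 125 in the knockdown. Every knockdown library was far below every control, and replicate 3 was lowest. The level was 3.85-fold lower (log2 -1.94, SE 0.50, edgeR adjusted p = 0.0122). Per 1000 counts on the 12 mRNAs of the other strand, it was at 3.01, 1.77 and 2.91 in controls and at 0.905, 0.455 and 0.533 in the knockdown, a measure that does not depend on scaling between libraries. The call was lost without MKN28 control replicate 1 (edgeR log2 -1.77, adjusted p = 0.0696) and without knockdown replicate 3 (-1.64, adjusted p = 0.065). Whether reads were assigned by strand is not given in the sources used here, so reads from the opposite strand over these bases cannot be told apart from MT-ND6.

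The other complex I members did not pass edgeR's test. MT-ND4L, MT-ND4 and MT-ND5, which follow MT-ND3 on the map, had log2 fold changes of -1.25, -1.12 and -1.20 that missed the threshold (edgeR adjusted p = 0.0729, 0.122 and 0.0874). Each lay below all controls in all knockdown libraries. With library totals alone these 3 passed as well, at -2.12, -1.99 and -2.06, so 5 members were called, beside a background of 34.9% (8.77% higher and 26.1% lower) and an all-gene median of -0.92 on that scale. The 3 also passed without knockdown replicate 2 (-1.74, -1.64 and -1.63), where 4249 of all 15728 genes did. MT-ND1 and MT-ND2, upstream on the map, had values of 1.15 and 0.58 that did not pass (edgeR adjusted p = 0.123 and 0.387). DESeq2 (1.32, adjusted p = 0.0443) and edgeR on all 12 libraries (1.20, adjusted p = 0.034) called MT-ND1 higher, and the sign of MT-ND2 turned to -0.30 with library totals.

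No member of complexes III, IV or V passed edgeR's test in the knockdown, where DESeq2 (log2 1.31, adjusted p = 0.0363) and edgeR on all 12 libraries (1.19, adjusted p = 0.0269) called MT-CO3 higher. MT-CYB, the complex III subunit, was at 0.70 on the log2 scale. Of complex IV, MT-CO3 was at 1.14 and above all controls in every knockdown library, MT-CO2 at 0.75 and MT-CO1, the catalytic core, at -0.35 (edgeR adjusted p = 0.108, 0.299 and 0.621). Of complex V, MT-ATP8 and MT-ATP6 were at 0.60 and 0.73. With library totals alone MT-CYB, MT-CO2, MT-ATP8 and MT-ATP6 took the other sign, at -0.18, -0.16, -0.31 and -0.20. The rRNAs MT-RNR1 and MT-RNR2 were at 0.55 and -0.28, with edgeR adjusted p = 0.43 and 0.722. Without knockdown replicate 1, 5 members passed, with MT-ND1, MT-CO3 and MT-ATP6 added as higher (edgeR adjusted p = 0.0112, 0.00745 and 0.0455). In that fit 10378 of all 15758 genes tested passed.

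**Figure D2:**
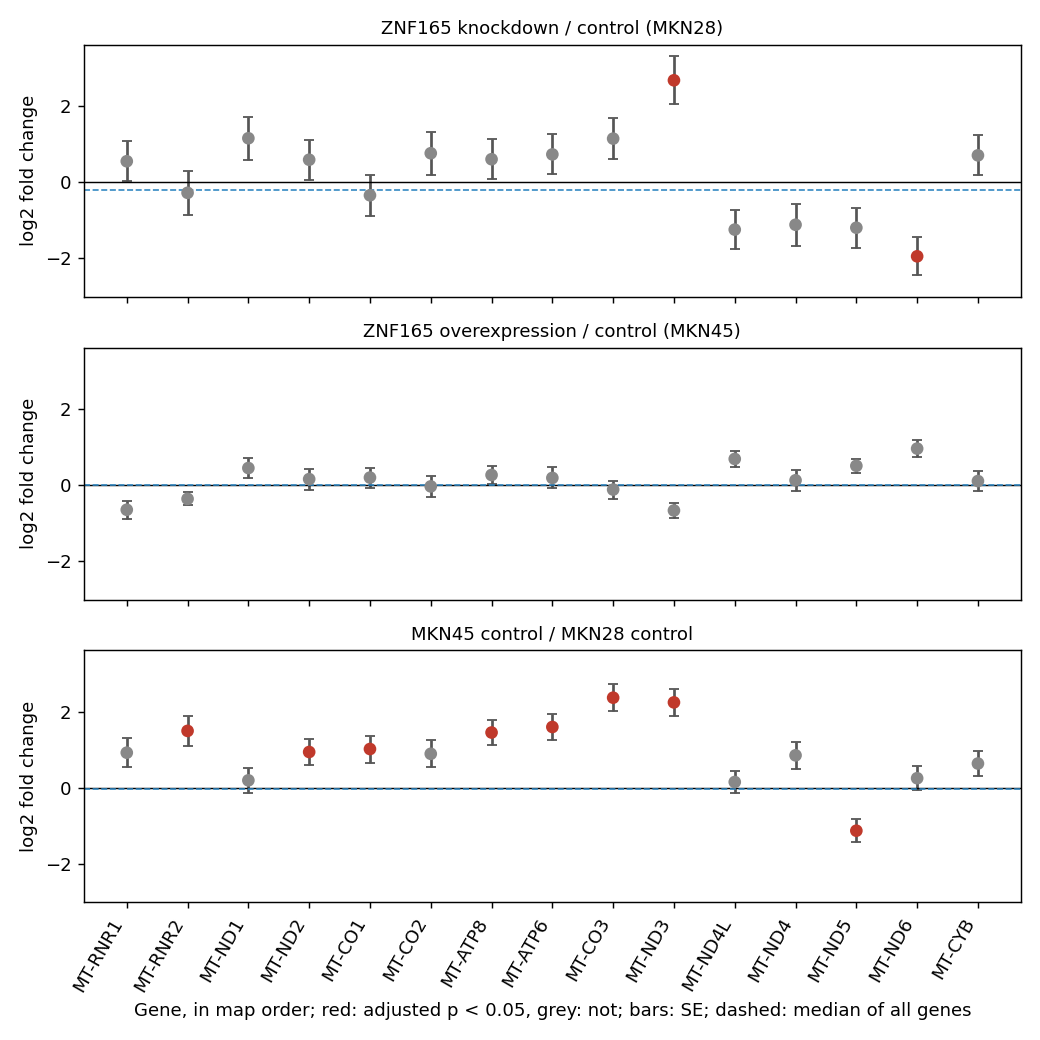
Log2 fold changes with standard errors from edgeR for the 15 members in map order, in 3 panels: knockdown against control in MKN28, overexpression against control in MKN45, and MKN45 against MKN28 controls. Red points passed the adjusted threshold (2, 0 and 8 members), grey points did not, and the dashed line is the median of all genes. In the upper panel values fall from 2.67 at MT-ND3 to -1.25 at the next member, MT-ND4L.

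The make-up of the mitochondrial mRNA counts, which no scaling between libraries can change, differed between knockdown and control for every mRNA. As a percent of the counts on the 13 mRNAs, 8 of the 13 were higher in all knockdown libraries than in all controls and 5 were lower, with no overlap. The 5 were MT-CO1, MT-ND4L, MT-ND4, MT-ND5 and MT-ND6. Of all genes, 23.5% lay higher and 30.3% lower without overlap in scaled CPM, a different measure. The shares of the 13 mRNAs sum to a fixed total, so a lower share of some members raises that of the others. The exact two-sided permutation test of 3 against 3 libraries cannot go below p = 0.1, and the smallest Benjamini-Hochberg adjusted value in the family of 57 such tests (of levels and ratios in 3 comparisons) was 0.154, so none of these shares passes a threshold of 0.05.

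MT-ND4, a proton-pumping subunit of complex I, held 18.8%, 18.7% and 17.5% of mitochondrial mRNA counts in MKN28 controls and 8.5%, 7.39% and 6.66% in the knockdown. MT-ND5, another such subunit, held 13.2%, 10.7% and 11.7% against 5.43%, 4.28% and 4.36%. The knockdown values of both were under those of every control. Together with MT-ND4L and MT-ND6, these neighbours held 37.5%, 34.2% and 34.1% of mRNA counts in controls and 16%, 13.5% and 12.8% in the knockdown, a sum chosen after the values were seen and given as a description. Knockdown replicate 1, whose description names ZNF165, thus had the same direction as the other two.

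Of the 8 shares that were larger in the knockdown, 7 belonged to genes before MT-ND4L on the map. MT-ND3 held 0.69%, 0.983% and 0.635% of mRNA counts in MKN28 controls and 2.17%, 4.61% and 6.46% in the knockdown. MT-ND1 held 6.1%, 5.96% and 6.64% against 10.4%, 13.2% and 11.6%. MT-CO2 held 15.9%, 16.2% and 16.2% against 21.4%, 25.1% and 24.3%. MT-CO3 held 5.49%, 6.21% and 5.85% against 9.53%, 11.4% and 13.8%. MT-CYB, the last mRNA gene of the heavy-strand map, also held more, 4.78%, 4.25% and 5.58% against 7.6%, 6.87% and 6.29%. The complex I total still fell in the make-up, from 47.9% ± 1.64 to 37.7% ± 1.06, and the complex IV total was higher, 51.5% ± 1.03 against 44.4% ± 1.72 (SD, n = 3 each).

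**Figure D3:**
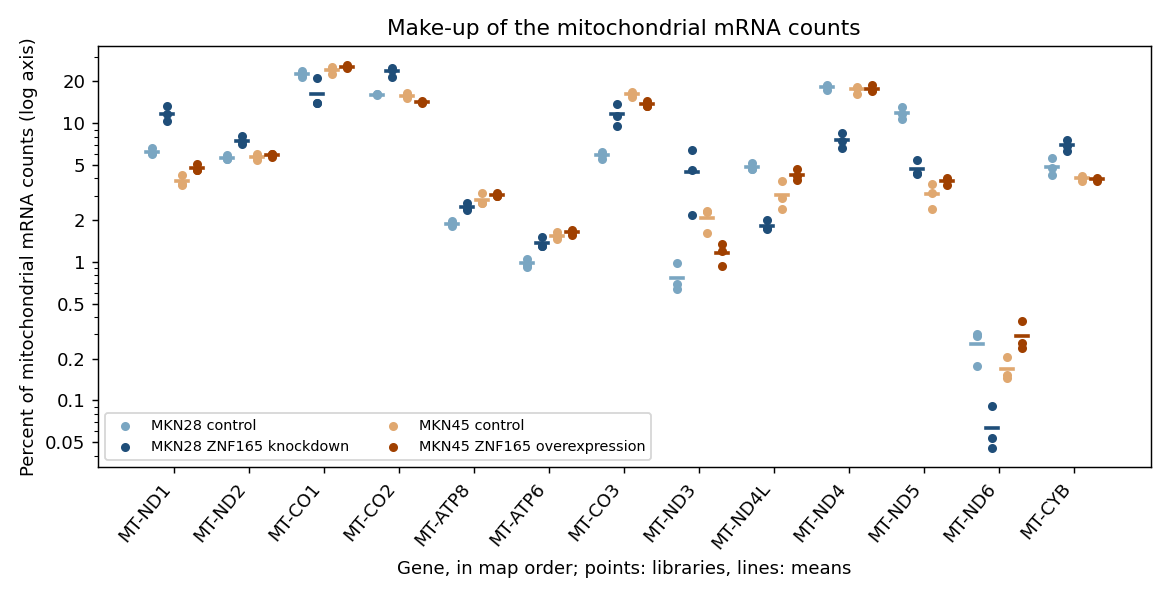
Percent of mitochondrial mRNA counts (log axis) for the 13 mRNAs in map order, with 1 point per library and a line at each group mean. The knockdown libraries (dark blue) separate from MKN28 controls (light blue) at every gene, most at MT-ND3, where they hold 2.17% to 6.46% against 0.635% to 0.983%.

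Genes that sit side by side changed their ratio sharply at 2 places of the map, chosen here after the values were seen. MT-ND3 and MT-ND4L are separated by 1 tRNA gene on the same strand. MT-ND3 counts per MT-ND4L count were 0.134, 0.211 and 0.136 in MKN28 controls and 1.08, 2.63 and 3.74 in the knockdown. In MKN45 they were 0.604, 0.665 and 0.795 in controls and 0.228, 0.256 and 0.345 under overexpression. The groups did not overlap in either line, and the direction in MKN45 was opposite to that in MKN28.

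At the second place, MT-ND5 and MT-CYB flank MT-ND6, which is read from the other strand. MT-ND5 counts per MT-CYB count were 2.76, 2.52 and 2.09 in MKN28 controls and 0.715, 0.623 and 0.694 in the knockdown. In MKN45 the ratio was 0.893, 0.629 and 0.752 in controls and 0.883, 0.979 and 1.05 under overexpression, and there the groups overlapped. The MKN28 controls stood far from the other 9 libraries in this ratio. MT-CO1 counts per MT-CO2 count were also lower in the knockdown, 0.985, 0.553 and 0.575 against 1.35, 1.47 and 1.38, with replicate 1 between the controls and the other two.

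**Figure D4:**
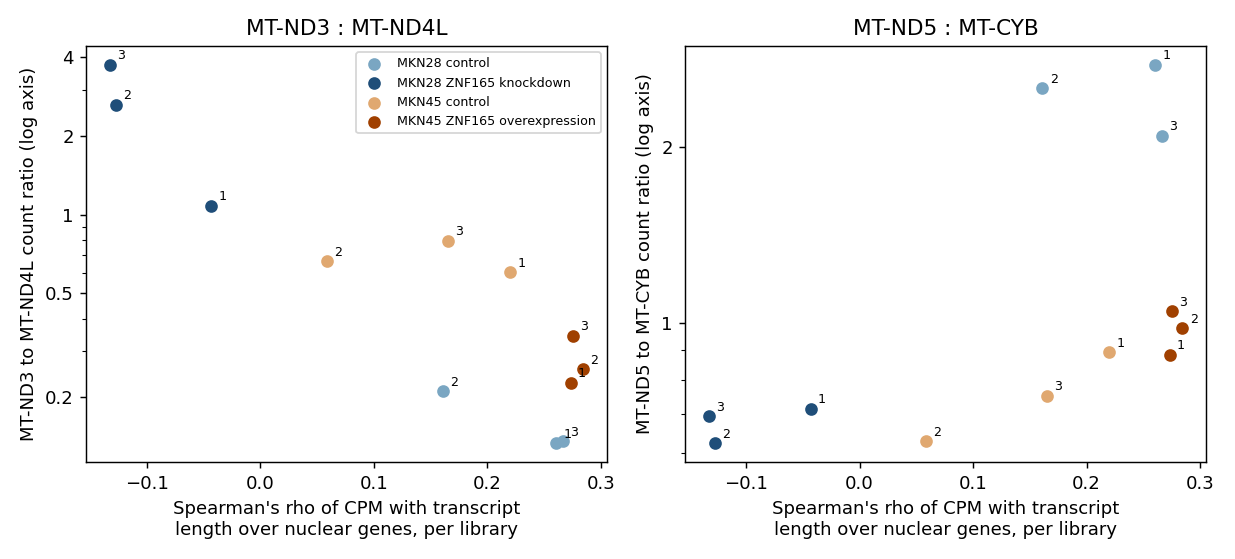
Count ratios of MT-ND3 to MT-ND4L (left) and MT-ND5 to MT-CYB (right) on log axes, against each library's Spearman's rho of CPM with transcript length over nuclear genes, with replicate numbers beside the points. The knockdown libraries lie at the lowest rho and the highest MT-ND3 to MT-ND4L ratio, 1.08 to 3.74.

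The knockdown libraries had the lowest rho with transcript length and the highest ratio of MT-ND3 to MT-ND4L. These genes span 346 and 297 bases. MT-ND4L is carried on a shared mRNA with MT-ND4, a gene of 1378 bases, so its mRNA is longer than its gene. Over the 12 heavy-strand mRNAs, the knockdown log2 fold change correlated with gene length at Spearman's rho -0.336 and Pearson's r -0.490, and with map order at -0.343 and -0.304, as a description over genes that share libraries. The MT-ND5 to MT-CYB ratio was lower in the knockdown, where rho was lower, with means of 0.677 against 2.45 in MKN28 controls. In MKN45 its means were 0.970 under overexpression, where rho was higher, and 0.758 in controls, with overlap. Between the lines it differed also at like rho, with 0.883 to 1.05 under overexpression and 2.09 to 2.76 in MKN28 controls. The part of rho in this ratio was not tested. With each library's length and GC trend removed, MT-ND3 was at 2.93 (edgeR adjusted p = 0.0145) and MT-ND6 at -2.06 (adjusted p = 0.00407), and the number called was again 2. That fit and the correlation with length took gene lengths also for the members on shared mRNAs. The part of RNA quality in these ratios was not tested otherwise.

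Under ZNF165 overexpression in MKN45, no member passed edgeR's test. In that test 5 had an unadjusted p under 0.05, beside 4242 of all genes, and DESeq2 called 1, MT-ND6, beside 1834 of all genes. Of the 15833 genes tested, 1.13% passed edgeR's test in this comparison, 0.935% higher and 0.196% lower. The members' log2 fold changes ran from -0.67 to 0.95, with a median of 0.15 against -0.0022 over all genes. In scaled CPM, MT-ND6, MT-ND5 and MT-ND4L lay above all controls in all overexpression libraries and MT-RNR1, MT-RNR2 and MT-ND3 below, beside 19.4% and 18.7% of all genes.

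MT-ND6 had 2270, 2412 and 2085 counts in MKN45 controls and 5460, 4997 and 5767 under overexpression. The groups lay well apart, and the fold change was 1.94 (log2 0.95, SE 0.23), with an edgeR adjusted p of 0.0628. MT-ND4L was at 0.68 (SE 0.20, edgeR adjusted p = 0.0912) and MT-ND5 at 0.50 (SE 0.19, adjusted p = 0.139). MT-ND3 had 25430, 26696 and 31607 counts in controls against 19791, 25097 and 20700, a log2 value of -0.67 (SE 0.21, edgeR adjusted p = 0.101). Without MKN45 control replicate 2, MT-ND6 and MT-ND4L passed edgeR's test, at 1.12 (adjusted p = 0.0142) and 0.78 (adjusted p = 0.0416). In that fit 1338 of all 16196 genes passed.

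The rRNAs MT-RNR1 and MT-RNR2 were at -0.65 (SE 0.24) and -0.36 (SE 0.17) on the log2 scale, with edgeR adjusted p = 0.134 and 0.203. The other members of complexes I, III, IV and V lay within -0.12 and 0.44. MT-CO2 and MT-CO3, at -0.04 and -0.12, took the other sign with library totals alone, at 0.09 and 0.0031.

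The make-up of the mRNA counts separated the overexpression libraries from their controls for 6 of the 13 mRNAs, a count to set beside the 19.4% and 18.7% of all genes whose scaled CPM, a different measure, did not overlap. MT-ND1, MT-ND4L and MT-ND6 held more and MT-CO2, MT-CO3 and MT-ND3 held less. Of the 6, 5 had gone the opposite way in the knockdown, and 1, MT-ND1, had gone the same way. The comparisons share no library. MT-ND3 held 2.32%, 1.6% and 2.3% of mRNA counts in MKN45 controls and 0.94%, 1.2% and 1.35% under overexpression. MT-ND6 held 0.207%, 0.145% and 0.152% against 0.259%, 0.24% and 0.375%. MT-CO3 held 16.2%, 15.6% and 16.8% against 13.2%, 13.3% and 14.5%. Each of these gaps is narrow beside that in the knockdown, and rho with transcript length was also higher in all overexpression libraries than in all MKN45 controls. Its part in the shares was not tested.

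Between the control groups, MKN45 cells had more of 7 members and less of 1 than MKN28 cells, beside 41.8% of 16088 genes that passed, 21.4% higher and 20.4% lower. The median log2 fold change of the members was 0.92 against -0.04 over all genes. In scaled CPM 8 members lay higher without overlap and 1 lower, beside 26.9% and 25.4% of all genes. This comparison shares the MKN28 controls with the knockdown and the MKN45 controls with the overexpression, so its values are not independent of those.

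The cytochrome c oxidase subunit MT-CO3 (ENSG00000198938) was higher in MKN45, with 54134, 61322 and 44235 counts in MKN28 and 177845, 259455 and 230881 in MKN45 controls. It was 5.14-fold higher (log2 2.36, SE 0.35, edgeR adjusted p = 0.000192), and MT-ND3 was 4.72-fold higher (log2 2.24, SE 0.35, edgeR adjusted p = 0.000294). The ATP synthase subunits MT-ATP6 and MT-ATP8 were higher by 1.60 and 1.45 on the log2 scale (edgeR adjusted p = 0.00306 and 0.00377). MT-CO3, MT-ND3, MT-ATP6 and MT-ATP8 passed under all 14 alternatives tried.

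MT-RNR2 was higher in MKN45 by 1.49 (edgeR adjusted p = 0.00876), MT-CO1 by 1.02 (adjusted p = 0.0356) and MT-ND2 by 0.94 (adjusted p = 0.0481). MT-CO1 and MT-ND2 passed under 8 of 14 alternatives each and missed the threshold without MKN28 control replicates 1 or 3 or MKN45 control replicates 2 or 3. Removing length and GC trends (0.54, edgeR adjusted p = 0.196, and 0.66, adjusted p = 0.166) and fitting all 12 libraries (adjusted p = 0.0711 and 0.0989) also ended both calls. Without MKN28 control replicate 1 their edgeR adjusted p was 0.112 and 0.123 and that of MT-RNR2 0.0506, with 4 members called. In that fit 5085 of all 16566 genes passed. MT-ND5 was the member with less in MKN45, with 130000, 105681 and 88048 counts in MKN28 against 39610, 40364 and 43244. It was 2.18-fold lower (log2 -1.12, SE 0.31, edgeR adjusted p = 0.011), and the call was lost without MKN28 control replicate 1 (-0.99, adjusted p = 0.0649) and without MKN45 control replicate 1 (-0.98, adjusted p = 0.0515). A fit blocked on the replicate number let 11 members pass, with MT-RNR1 (0.95), MT-CO2 (0.82) and MT-ND4 (0.78) added as higher. In that fit 8939 of all 16088 genes passed. A pairing of the control libraries by number was not established.

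In the make-up of mRNA counts the control lines differed without overlap at 8 of the 13 mRNAs. Of all genes, 26.9% lay higher in MKN45 and 25.4% lower without overlap in scaled CPM, a different measure. MT-ATP8, MT-ATP6, MT-CO3 and MT-ND3 held more in MKN45, and MT-ND1, MT-ND4L, MT-ND5 and MT-CYB held less. MT-CO3 held 16.2%, 15.6% and 16.8% in MKN45 against 5.49%, 6.21% and 5.85% in MKN28. MT-ND5 held 3.62%, 2.42% and 3.15% against 13.2%, 10.7% and 11.7%. So complex IV mRNAs made up 56.2% ± 1.13 of mRNA counts in MKN45 controls and 44.4% ± 1.72 in MKN28 controls, and complex I mRNAs 35.4% ± 1.06 and 47.9% ± 1.64 (SD, n = 3 each).

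Whether higher ZNF165 acted differently in the 2 lines was tested with an interaction, in which the log2 fold changes of both arms add up, so that mirrored effects give values near 0. No member passed edgeR's test, where 17.5% of 17266 genes did. In edgeR's test 2 members had an unadjusted p under 0.05, beside 6042 of all genes, and DESeq2 called 2, beside 4730. MT-ND3 was at 2.03 (SE 0.68, edgeR adjusted p = 0.0515) and MT-ND1 at 1.63 (SE 0.62, adjusted p = 0.0772). Without knockdown replicate 1, 3 members passed edgeR's test, where 8209 of all 17827 genes did. In that fit MT-ND3 was at 2.42 (edgeR adjusted p = 0.00152) and MT-ND1 at 1.88 (adjusted p = 0.0132). MT-ND4 and MT-ND6 were at -0.96 and -0.95 and did not pass (edgeR adjusted p = 0.274 and 0.186).

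Nuclear genes for the structural subunits of the same complexes were higher in the knockdown in most cases, and edgeR's test on the 6 libraries called none lower. Without knockdown replicate 1 it called 2, 1, 0 and 3 lower in complexes I, III, IV and V, DESeq2 called 1 of complex I lower and the fit with the replicate block 1 of complex I and 1 of complex V. Of all genes, 5917 of 15758, 3607 of 14939 and 4084 of 14939 were called lower in those fits, in the same order. Of complex I, 25 of 37 passed edgeR's test, of complex III 8 of 9, of complex IV 10 of 11 and of complex V 12 of 17, beside 19.2% of all genes called higher. Their median log2 fold changes were 1.99, 2.29, 2.22 and 1.83, where the mitochondrially encoded members' median was 0.58. With library totals alone the numbers were 14, 6, 7 and 8, beside 8.77% of all genes called higher. With knockdown replicate 1 as the only knockdown library the medians were 1.46, 1.69, 1.90 and 1.61. With length and GC trends removed the numbers were 26, 7, 11 and 10, with medians of 1.38, 1.64, 1.94 and 1.17, beside 3556 of all 14939 genes called higher. Leaving out MKN28 control replicate 1 gave 13, 4, 6 and 7, beside 1019 of all 15276 genes. Leaving out MKN28 control replicate 3 gave 15, 5, 6 and 7, beside 1292 of all 15427 genes. Under overexpression none of the 74 passed edgeR's test, with medians of -0.60, -0.55, -0.66 and -0.62. DESeq2 called 10 as lower, beside 796 of all 15833 genes. In MKN45 against MKN28 controls 9, 3, 3 and 3 were higher and none lower, 24.3% of the 74 beside 21.4% of all genes. Without MKN28 control replicate 1 the numbers were 4, 1, 3 and 1, beside 2741 of all 16566 genes called higher. Leaving out MKN28 control replicate 3 gave the same numbers, beside 3010 of 16624 genes, and MKN45 control replicate 2 gave 4, 1, 3 and 2, beside 3302 of 16822. The fit blocked on the replicate number gave 15, 4, 6 and 7, with 2 of complex V lower, beside 4357 of all 16088 genes higher and 4582 lower. In the interaction, 31 of the 74 were called higher (41.9%) and none lower, where 1397 of all 17266 genes were higher and 1620 lower. The lists were chosen with earlier results of these data known.

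Nuclear genes that copy, transcribe and process mitochondrial DNA and RNA were called about as often as other genes in the knockdown. Of 40 listed genes 39 were tested, 6 rose (15.4%), 9 fell (23.1%) and 24 did not pass, beside 19.2% and 21.6% of all genes, with a median log2 fold change of -0.16 against -0.20 over all genes. Without MKN28 control replicate 1 the numbers were 2 and 3, where 1019 of all 15276 genes rose and 1623 fell. Without knockdown replicate 1 they were 10 and 21, where 4461 of all 15758 genes rose and 5917 fell. Those that fell the most included LRPPRC, which with SLIRP binds and stabilises mitochondrial mRNAs other than MT-ND6. It had 8050, 5114 and 8607 counts in MKN28 controls and 783, 252 and 103 in knockdown libraries. It was 10.6-fold lower (log2 -3.40, SE 0.61, edgeR adjusted p = 0.00407) and passed under all 15 alternatives, at -2.57 in the fit with knockdown replicate 1 alone and at -1.35 with length and GC trends removed.

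PPARGC1B, a coactivator of mitochondrial gene programmes, fell to a log2 fold change of -3.30 (edgeR adjusted p = 0.00883). POLG2, the accessory subunit of the mitochondrial DNA polymerase, was at -2.94 (edgeR adjusted p = 0.00842) and PNPT1, which degrades mitochondrial RNA, at -2.45 (adjusted p = 0.0256). PNPT1 missed the threshold without any 1 of MKN28 control replicates 1 and 3 (edgeR adjusted p = 0.0728 and 0.0823) and knockdown replicates 2 and 3 (0.0736 and 0.0548), and without both of the latter (0.125). HSD17B10, a subunit of the RNase P that cuts tRNA 5′ ends, rose by 3.16 (edgeR adjusted p = 0.00456), with 1108, 1154 and 1212 counts in controls and 2379, 7002 and 4132 in the knockdown. With length and GC trends removed HSD17B10 was at 1.16. NRF1, a transcription factor of nuclear respiratory genes, rose by 2.34 (edgeR adjusted p = 0.00489), PTCD1 by 2.00 (adjusted p = 0.0131) and SSBP1, the mitochondrial single-stranded DNA binding protein, by 1.37 (adjusted p = 0.0424). SSBP1 passed under 8 of 15 alternatives only, its edgeR adjusted p reaching 0.17, 0.122 and 0.0917 without MKN28 control replicates 1, 2 and 3 and 0.0835 without knockdown replicate 3. PTCD1 missed the threshold without MKN28 control replicate 1 (edgeR adjusted p = 0.0818), without knockdown replicates 2 and 3 together (0.0851) and with library totals alone (0.0773).

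The basal transcription factors did not pass edgeR's test on the 6 libraries. POLRMT, the mitochondrial RNA polymerase, was at 1.18 (edgeR adjusted p = 0.143), TFAM, which packages and bends the promoter DNA, at -0.48 (adjusted p = 0.67) and TFB2M, which opens the promoter, at -0.07 (adjusted p = 0.945). TFAM had 1208, 710 and 1692 counts in controls and 1422, 111 and 62 in the knockdown, so replicate 1 lay among the controls and the other two far below. Without knockdown replicate 1 all 3 passed edgeR's test, POLRMT at 1.70 (adjusted p = 0.00351), TFAM at -2.37 (adjusted p = 0.000516) and TFB2M at -1.19 (adjusted p = 0.0299). With length and GC trends removed TFAM passed with the other sign, at 1.23 (edgeR adjusted p = 0.0467). Without replicates 2 and 3 the log2 values of POLRMT, TFAM and TFB2M were -0.33, 0.88 and 1.08, all with the other sign.

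In MKN45 none of the 39 passed edgeR's test under overexpression, where DESeq2 called 3, beside 1834 of all 15833 genes. LRPPRC was at 0.71 (edgeR adjusted p = 0.227), with 6990, 1911 and 6030 counts in controls and 9855, 9946 and 8976 under overexpression, and the value of control replicate 2 stood apart. Between the control lines 2 of the 39 were higher in MKN45 and 5 lower, 5.13% and 12.8% beside 21.4% and 20.4% of all genes. The fit blocked on the replicate number gave 4 and 10, where 4357 of all 16088 genes were higher and 4582 lower. TFB1M, which methylates the small rRNA, was higher by 1.58 (edgeR adjusted p = 0.00332) and TBRG4, a FASTK family member, by 1.17 (adjusted p = 0.0192). GABPA, a nuclear transcription factor, was lower, at -2.18 (edgeR adjusted p = 0.00402), as were MTERF3 at -1.47 (adjusted p = 0.0135), the oligoribonuclease REXO2 at -1.27 (adjusted p = 0.00556) and FASTKD5 at -1.16 (adjusted p = 0.0241). Of the single libraries, leaving out MKN28 control replicate 3 took the edgeR adjusted p of MTERF3, TBRG4 and FASTKD5 to 0.06, 0.07 and 0.128. MTERF3 and TBRG4 also missed the threshold without MKN28 control replicate 1, MTERF3 and FASTKD5 without MKN45 control replicate 1, TBRG4 without MKN45 control replicate 2 and FASTKD5 without MKN45 control replicate 3.

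Reads of mitochondrial origin can also be counted on nuclear copies of mitochondrial DNA. Of 381 such identifiers 305 had no count, and 3, MTATP6P1, MTND2P28 and MTND4P12, held 98.4% of the counts of the group. MTATP6P1 (ENSG00000248527, chromosome 1, 633696 to 634376, plus strand, GRCh38) is as long as MT-ATP6, 681 bases, and differs from it at 10 positions, with 98.5% identity and a longest identical run of 141 bases. A window of both, from positions 103 to 192 of each gene, is shown because it holds 4 of the differences, in capitals, and otherwise reads the same over 90 bases.
MT-ATP6 window: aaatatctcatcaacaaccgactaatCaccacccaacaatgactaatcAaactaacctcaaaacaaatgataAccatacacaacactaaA
MTATP6P1 window: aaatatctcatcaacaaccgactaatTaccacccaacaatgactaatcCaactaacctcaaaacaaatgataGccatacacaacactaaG
MTATP6P1 counts were 78.9 to 100.5 per 100 counts of MT-ATP6 in every library, over a range of 3046 to 34344 MT-ATP6 counts.

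The copies' counts were a narrow share of their partners' for MTATP6P1 and MTND2P28 and a variable one for MTND4P12. MTND2P28 (chromosome 1, 629640 to 630683, 98.2% identical to MT-ND2) had 8.55 to 11.6 counts per 100 MT-ND2 counts, and MTND4P12 (chromosome 5, 134926660 to 134928036, minus strand, 95.6% identical to MT-ND4) had 0.247 to 0.96 per 100 MT-ND4 counts. Between the control lines MTATP6P1 was higher in MKN45 by 1.72 (edgeR adjusted p = 0.00238) beside 1.60 for MT-ATP6. In the knockdown MTND4P12 fell by 1.42 (edgeR adjusted p = 0.0314) beside -1.12 for MT-ND4. Between the control lines the latter pair had opposite signs, -0.42 for MTND4P12 (edgeR adjusted p = 0.448) and 0.85 for MT-ND4 (adjusted p = 0.077), and MTND4P12 counts per 100 MT-ND4 counts were lower in MKN45 without overlap, with means of 0.344 and 0.838. Reads of the partners cannot be told apart from those of the copies in these counts. Adding MTATP6P1 brought MT-ATP6 to 1439, 1358 and 1252 CPM per kilobase in MKN28 controls, still below the 4653 ± 534 of MT-ATP8, and adding all copies left the share of the library lower in the knockdown by 2.61 percentage points, where it was 2.59 without them.

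**Figure D5:**
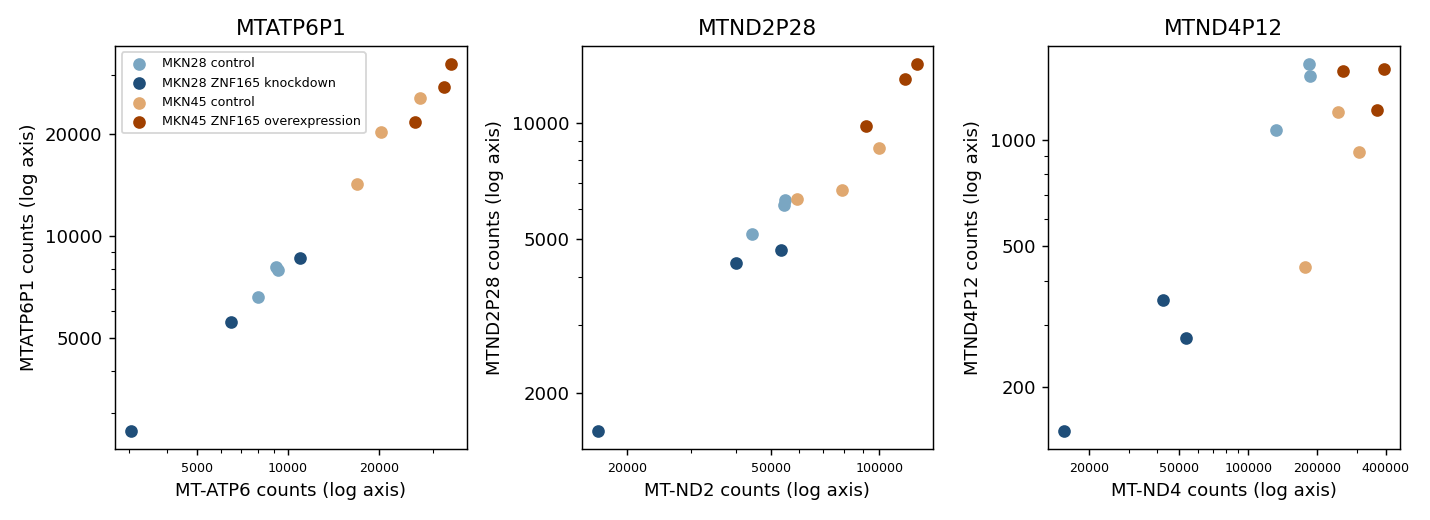
Counts of the nuclear copies MTATP6P1, MTND2P28 and MTND4P12 (vertical, log axes) against those of MT-ATP6, MT-ND2 and MT-ND4 (horizontal, log axes), with 1 point per library, coloured by group. MTATP6P1 stays at 78.9 to 100.5 counts per 100 MT-ATP6 counts from the lowest to the highest library.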

How the data were processed

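Values are unnormalized read counts for Ensembl genes, whole numbers as the authors deposited them, with a column for each library per the file headers. HISAT2 and StringTie were used, per the submitters' processing notes, without versions. No counting step, genome build, annotation, strand setting or RNA selection is named in the sources used here. Multi-mapping reads and molecular identifiers are not described, so counting error is a lower limit on error. Names, lengths, coordinates and sequences are those of GENCODE 29 (GRCh38).

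Each comparison was fitted on its own 6 libraries over all genes with edgeR 4.0.16 (quasi-likelihood test, TMM factors, filterByExpr with a minimum count of 10 and a minimum total of 15, Benjamini-Hochberg adjusted p under 0.05), and the interaction on all 12. The script was tested on simulated counts. Shares and ratios were computed from the counts as deposited. Sums over members are given without a p-value, although the shares of the library on members, mRNAs and rRNAs were part of the family of 57 permutation tests. The alternatives were DESeq2 1.42.0, upper-quartile factors, library totals, scaling without the members, no filter, the replicate number as a block, all 12 libraries together, removal of each library's length and GC trend, and leaving libraries out.

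The labels give the same replicate numbers to all groups. Deviations of same-numbered libraries correlated at 0.264, 0.507 and 0.281 between the control lines. MKN45 control replicate 1 also correlated at 0.275 with MKN28 control replicate 3, and MKN45 control replicate 3 at 0.150 with MKN28 control replicate 1. Unlike numbers that included a replicate 2 gave -0.394 to -0.297. Replicate 2 thus stood apart in both lines, which does not establish pairs by number. The main fit holds no block. The named nuclear genes are, of 40 listed, up to 4 rising and 4 falling per comparison with the largest change among those that passed without overlap and reached a group mean of 1 CPM, and always POLRMT, TFAM, TFB2M and LRPPRC. The members and lists were chosen with earlier results of these data known. Samples were grouped by genotype and description.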

Additional observations from a re-analysis of the deposited data

Results flagged for a closer look

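MT-ND1 held a larger part of the mitochondrial mRNA counts in every knockdown library than in every MKN28 control, by 5.49 percentage points of the means, and also in every overexpression library than in every MKN45 control, by 0.922 percentage points. The other 5 mRNAs whose share separated in MKN45 had moved the opposite way in the knockdown. The difference between the lines in this share was not tested. On the log2 scale of the whole-table fit the interaction for MT-ND1 was 1.63 with an edgeR adjusted p of 0.0772.

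Of the nuclear genes of mitochondrial DNA and RNA, 6 had effects that differed between the lines by edgeR's interaction test, 15.4% of the 39 tested beside 17.5% of all genes. LRPPRC was at -2.66 (edgeR adjusted p = 0.0198), TFB1M at -3.31 (adjusted p = 0.0364), POLG2 at -2.22 (adjusted p = 0.0311) and FASTKD2 at -2.03 (adjusted p = 0.0336), and HSD17B10 at 2.83 (adjusted p = 0.0152) and NRF1 at 2.33 (adjusted p = 0.00811). The knockdown and overexpression log2 fold changes of LRPPRC were -3.40 and 0.71. Over all 18 alternatives TFB1M passed under 8, POLG2 and FASTKD2 under 9, LRPPRC under 12, HSD17B10 under 17 and NRF1 under 18. The largest edgeR adjusted p of TFB1M was 0.0919, without overexpression replicate 1, and that of LRPPRC 0.0595, without MKN45 control replicate 1. All but NRF1 missed the threshold without MKN28 control replicate 1, with an edgeR adjusted p of 0.0863 for TFB1M, 0.0864 for POLG2, 0.0776 for FASTKD2, 0.0512 for LRPPRC and 0.051 for HSD17B10. TFB1M, POLG2, FASTKD2 and LRPPRC also missed it without MKN45 control replicates 1 or 3 or any overexpression replicate, TFB1M, POLG2 and FASTKD2 without MKN28 control replicate 3 or knockdown replicate 3, POLG2 and FASTKD2 without knockdown replicate 2, and TFB1M without MKN28 control replicate 2.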

How the results depend on the processing

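In the knockdown the number of members called was 2. It was 4 with DESeq2, 5 with library totals alone, 4 with the replicate block and 6 with all 12 libraries in the fit. It was 0 to 5 when single libraries were left out, with 0 without MKN28 control replicate 1. Same-numbered knockdown and control libraries correlated at 0.291, 0.431 and -0.357 and overexpression pairs at -0.0553, -0.0547 and 0.0867, so those numbers were not read as pairs. Under overexpression the number was 0, and 1 with DESeq2 or with no filter on low counts, and 0 to 2 with single libraries left out. Between control lines it was 8, and 4 to 10 with single libraries left out, where 5085 to 7500 of all genes were called. For the interaction it was 0, and 2 with DESeq2, 4 with library totals, 1 with upper-quartile factors, with scaling without the members or with no filter, and 0 to 3 with single libraries left out. Over all 17266 genes the interaction calls numbered 3017, and 4730 with DESeq2, 3118 with library totals, 3160 with upper-quartile factors and 3197 with scaling without the members. They were 3778 of 30499 genes with no filter and 1163 to 8209 with single libraries left out. Over all 14939 genes the knockdown calls numbered 6092, and 7283 with DESeq2, 5215 with library totals alone and 6994 with the replicate block. With all 12 libraries in the fit they were 8734 of 17266 genes. They numbered 2642 without MKN28 control replicate 1, 3171 without MKN28 control replicate 3 and 10378 without knockdown replicate 1. Removing length and GC trends turned 2864 higher and 3228 lower into 3556 and 2635. Overexpression calls numbered 179, and 1834 with DESeq2, 722 with no filter, 1259 with the trends removed, 8 with the block, 3 with all 12 libraries and 1 to 1338 with single libraries left out. The causes were not tested. The share of the library differed between control lines by 5.35 percentage points, and by 3.48 without the rRNAs, and its difference under overexpression ran from -0.119 to 2.13 with single libraries left out.

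Library totals moved the median of all genes in the knockdown from -0.20 to -0.92 and reversed the log2 fold changes of MT-RNR1 (-0.14), MT-ND2 (-0.30), MT-CO2 (-0.16), MT-ATP8 (-0.31), MT-ATP6 (-0.20) and MT-CYB (-0.18). Under overexpression they reversed MT-CO2 (0.092) and MT-CO3 (0.0031), and the block reversed MT-CO2 (0.024). Removing length and GC trends reversed MT-RNR2 (0.14), TFAM (1.23) and TFB2M (0.28) in the knockdown, MT-CO2 (0.12), MT-ATP8 (-0.12), MT-CO3 (0.057) and POLRMT (0.025) under overexpression, and MT-ND1 (-0.38) and TFAM (0.10) between control lines. DESeq2 reversed TFB2M (0.015) in the knockdown, and leaving out knockdown replicates 2 and 3 reversed POLRMT (-0.33), TFAM (0.88) and TFB2M (1.08).

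Single libraries left out also turned signs of values that had not passed. In the knockdown MT-RNR2 ran from -0.62 to 0.16, MT-ATP8 from -0.022 to 0.90, TFAM from -2.37 to 0.028 and TFB2M from -1.19 to 0.33. Under overexpression MT-ND2 ran from -0.10 to 0.48, MT-CO1 from -0.027 to 0.53, MT-CO2 from -0.29 to 0.28, MT-ATP6 from -0.049 to 0.52, MT-CO3 from -0.35 to 0.12, MT-ND4 from -0.14 to 0.44, MT-CYB from -0.12 to 0.34 and POLRMT from -0.36 to 0.16. Between control lines MT-ND1 ran from -0.049 to 0.45, POLRMT from -0.65 to 0.26 and TFAM from -0.39 to 0.14. No member that had passed changed its direction. Leaving out MKN28 control replicate 1 ended both knockdown calls, leaving out MKN28 control replicate 3 ended that of MT-ND3, and both stayed without MKN28 control replicate 2. The number of libraries thus limits these results. The least abundant member, MT-ND6, had at least 125 counts in every library.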
